A study of Homo sapiens with 6 samples.

Results

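Notch is a cell-to-cell signalling pathway, and 10 of its genes were followed in LNCaP prostate cancer cells: the receptors NOTCH1, NOTCH2 and NOTCH3, the ligands JAG1 and JAG2, the nuclear factors RBPJ and MAML1, the repressors HES1 and HES6, and the antagonist NUMB. They were found by gene name, and all 10 were among the 16000 genes of the table. NOTCH3 was selected on its low unadjusted p between the sorted groups (0.018 with limma), so its difference between the groups is a description and is not used as a test.

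Notch signalling links neighbouring cells. Ligands of the Jagged and Delta families on the surface of 1 cell bind Notch receptors on the next, proteases then cut the receptor, and its freed intracellular part joins the DNA-binding protein RBPJ and a Mastermind coactivator in the nucleus to switch on target genes, chief among them repressors of the HES and HEY families. NUMB counters the pathway by sending receptors for degradation. In the prostate, Notch signalling is known for its part in the balance between progenitor and differentiated epithelial cells.

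The cells were LNCaP, an androgen-responsive line of human prostate cancer. They were sorted by ALDEFLUOR, a dye that lights up where aldehyde dehydrogenase (ALDH) is active, into the brightest 10% (ALDH high, 3 samples) and the dimmest 10% (ALDH low, 3 samples). The labels name no other treatment of either group. Both were grown in RPMI-1640 with 10% serum, and how long after the sort RNA was taken is not given. Whether the samples of a group were separate sorts the labels do not tell, so the p-values reflect only how far these samples scatter. These are bulk samples, in which fewer cells of a type and less RNA per cell cannot be told apart.

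The libraries held 23817310 to 30617873 recovered reads. Each of the 10 genes was seen in every library, at 204 to 9234 reads. All 8 prostate luminal markers checked were in the table, with sums of 191157 to 205747 normalized counts in ALDH high, against 186334 to 222442 in ALDH low. Of 4 basal markers KRT14 was listed, of 5 neuroendocrine ones SYP, of 5 leukocyte ones CD68 and of 4 endothelial ones VWF. Of 5 fibroblast markers COL1A1 alone was listed, at 1469 to 1776 normalized counts in ALDH high, against 821 to 1451 in ALDH low. Its groups did not overlap, as in 3.67% of all genes in this direction and 6.99% in either. The groups overlapped in KRT14, SYP, CD68 and VWF. COL1A2, COL3A1, DCN and LUM were not in the table, and the part of COL1A1 in the results was not tested. Within the groups the libraries were uneven. In deviations from the group means, which leave out any difference between the groups, over the 11506 genes averaging 100 normalized counts or more, ALDH low 2 went with ALDH high 1 (r = 0.39) and ALDH high 3 (r = 0.36), and ALDH high 2 with ALDH low 1 (r = 0.56). No gene passed an adjusted p of 0.05 between the groups (limma, 0% of 16000), 338 had an unadjusted p under 0.05 (2.11%), and edgeR and DESeq2 also called 0, with 357 and 355 genes at an unadjusted p under 0.05.

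HES1 is the textbook direct target of the pathway and HES6 is a related gene not usually described as such. The sequence before a RefSeq start site of each is therefore shown. The letters TGGGAA (or TTCCCA on the other strand) are the core of the sequence that RBPJ binds, and capitals mark each match. Both stretches are from RefSeq (GRCh38.p14): chr3:194135898-194136144, plus strand, for HES1, and chr2:238240125-238240288, minus strand, for HES6. Each ends before the first base of any annotated exon of the gene that reaches into its window. The annotated HES6 gene starts further upstream, at base 238240662, so its stretch lies inside the annotated gene.
HES1: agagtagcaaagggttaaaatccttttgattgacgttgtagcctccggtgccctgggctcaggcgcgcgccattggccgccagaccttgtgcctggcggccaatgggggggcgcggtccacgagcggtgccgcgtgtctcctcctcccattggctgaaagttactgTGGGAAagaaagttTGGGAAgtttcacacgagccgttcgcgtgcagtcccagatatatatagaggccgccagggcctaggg
HES6: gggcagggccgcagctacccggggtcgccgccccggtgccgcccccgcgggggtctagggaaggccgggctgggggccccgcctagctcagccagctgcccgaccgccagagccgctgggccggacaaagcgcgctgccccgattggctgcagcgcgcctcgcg
In HES1 the pair of matches began 84 and 70 bases before the start site, on the same strand. The whole HES6 window of 300 bases, 250 before its RefSeq start site and 50 after, held no match. It does not reach the upstream annotated start of HES6, so the bases before that start were not searched. Of 35116 promoter windows of that length 24.0% held at least 1 match and 3.80% at least 2. Windows were found for all 10 genes, 14 in all because RBPJ has several start sites. Apart from HES1, only RBPJ held matches, 2 of them, 115 and 72 bases before the second of its start sites. The letters CACNAG (either strand), the N box bound by HES proteins, occurred 4 times in the HES1 window, 165, 132 and 58 bases before the start site and 16 after it, none of them overlapping a TGGGAA match. It also occurred in windows of NOTCH1, NOTCH2, NOTCH3, RBPJ and MAML1, which makes 6 of the 10 genes. Of all windows 38.0% held it at least once and 8.95% at least 2 times. A match is a description of the letters and not of binding.

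Levels were compared between genes per kilobase of exon, taken over all annotated exons of a gene. That length can include exons not used in these cells, and its part in the order was not tested. On this scale HES6 had the highest level of the 10 genes, at 3064 ± 1027 normalized counts per kb (SD over all 6 libraries). JAG2 came next at 701 ± 66.7 per kb and NOTCH3 followed at 361 ± 75.7 per kb. The ranges of these 3 genes overlapped neither each other nor that of MAML1, which stood at 211 ± 21.1 per kb. From MAML1 downward each gene's range overlapped that of the next, with RBPJ at 163 ± 21.8, NOTCH1 at 137 ± 30.2, HES1 at 131 ± 30.3, NUMB at 128 ± 18.9, JAG1 at 124 ± 25.03 and NOTCH2 at 86.6 ± 30.8 per kb. Thus HES6 stood at the top of the order and HES1 in its lower part, among genes with overlapping ranges. Whether the matches shown above bear on these levels was not tested.

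**Figure D1:**
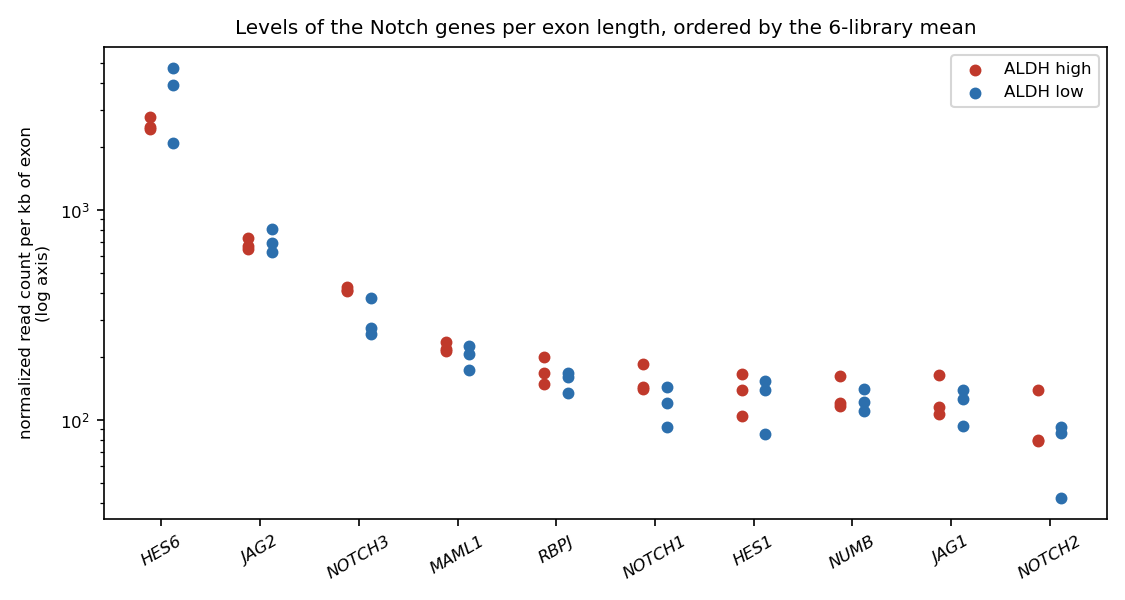
Normalized read count per kb of exon (log axis) of the 10 Notch genes, 1 point per library, ALDH high left and ALDH low right within each gene, ordered by the mean of all 6 libraries. HES6, JAG2 and NOTCH3 stand above the other 7 genes, whose ranges run into each other.

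The 3 receptor genes were all higher on average in ALDH high, and none of them passed the test across all genes. NOTCH3, a receptor known above all from vascular smooth muscle and also present in epithelial cancers (chr19:15159038-15200981, minus strand), had 3892, 4018 and 3846 normalized counts in ALDH high 1, 2 and 3, against 2398, 3591 and 2585 in ALDH low 1, 2 and 3. The ALDH high values lay close together, and ALDH low 2 stood well above the other ALDH low libraries and just below the ALDH high ones. The ALDH high mean was 3919 ± 88.9 and the ALDH low mean 2858 ± 642 (SD over 3 libraries), 1.37 times higher, with a log2 difference of 0.48 on the log2(normalized count + 1) scale. It was the only 1 of the 10 genes whose groups did not overlap, as did 588 of all genes in this direction (3.67%), 531 in the other (3.32%) and 1119 in either (6.99%), and nothing is read from that because this comparison chose the gene. In the authors' deposited table its log2 fold change, ALDH low over ALDH high, is −0.46.

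NOTCH1, a receptor with both growth-promoting and growth-restraining roles in epithelia (chr9:136494433-136545786, minus strand), had 1493, 1910 and 1451 normalized counts in ALDH high 1, 2 and 3, against 1246, 1480 and 962 in ALDH low 1, 2 and 3. ALDH high 2 was the highest library and ALDH low 3 the lowest, and the groups overlapped through ALDH low 2, which lay above ALDH high 3. The log2 difference was 0.41 (95% interval −0.02 to 0.83; limma adjusted p = 0.984), and it was 0.24 without ALDH low 3 and 0.28 without ALDH high 2. NOTCH2, a receptor needed in mouse for bile duct formation (chr1:119911553-120069626, minus strand) had 1336, 2325 and 1350 in ALDH high, against 1557, 1448 and 717 in ALDH low. Only ALDH high 2 and ALDH low 3 stood away from the rest, and the other 4 libraries ran the opposite way, with both ALDH low ones above both ALDH high ones. The log2 difference of NOTCH2 was 0.46 (−0.22 to 1.13; limma adjusted p = 0.984), and it was 0.19 without ALDH high 2, 0.10 without ALDH low 3 and −0.16 without both. Human-specific partial copies of NOTCH2 share its first exons, so counting of uniquely placed reads may lose some of its reads. Strand is not known, so reads of antisense genes cannot be told apart from those of any gene named here.

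The share of each receptor in the receptor transcripts overlapped between the groups. Per kb of exon, NOTCH3 made up 65.0%, 57.0% and 65.0% of the 3 receptors' counts in ALDH high 1, 2 and 3, against 54.6%, 62.6% and 67.0% in ALDH low 1, 2 and 3. NOTCH2 made up 12.5%, 18.4% and 12.8% in ALDH high, against 19.8%, 14.1% and 10.4% in ALDH low. The share of NOTCH1 ran from 22.2% to 25.7% over all libraries. The highest NOTCH3 share was in ALDH low 3, although the NOTCH3 count itself was among the lower ones there. NOTCH3 has 9.39 kb of exon and NOTCH2 16.8 kb. Of genes averaging 100 normalized counts or more, in 4 bins of exon length, 56.5% of the longest bin were lowest in ALDH low 3. In the shortest bin it was 4.63%. Division by exon length leaves such differences between libraries in place, and their part in the shares was not tested.

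**Figure D2:**
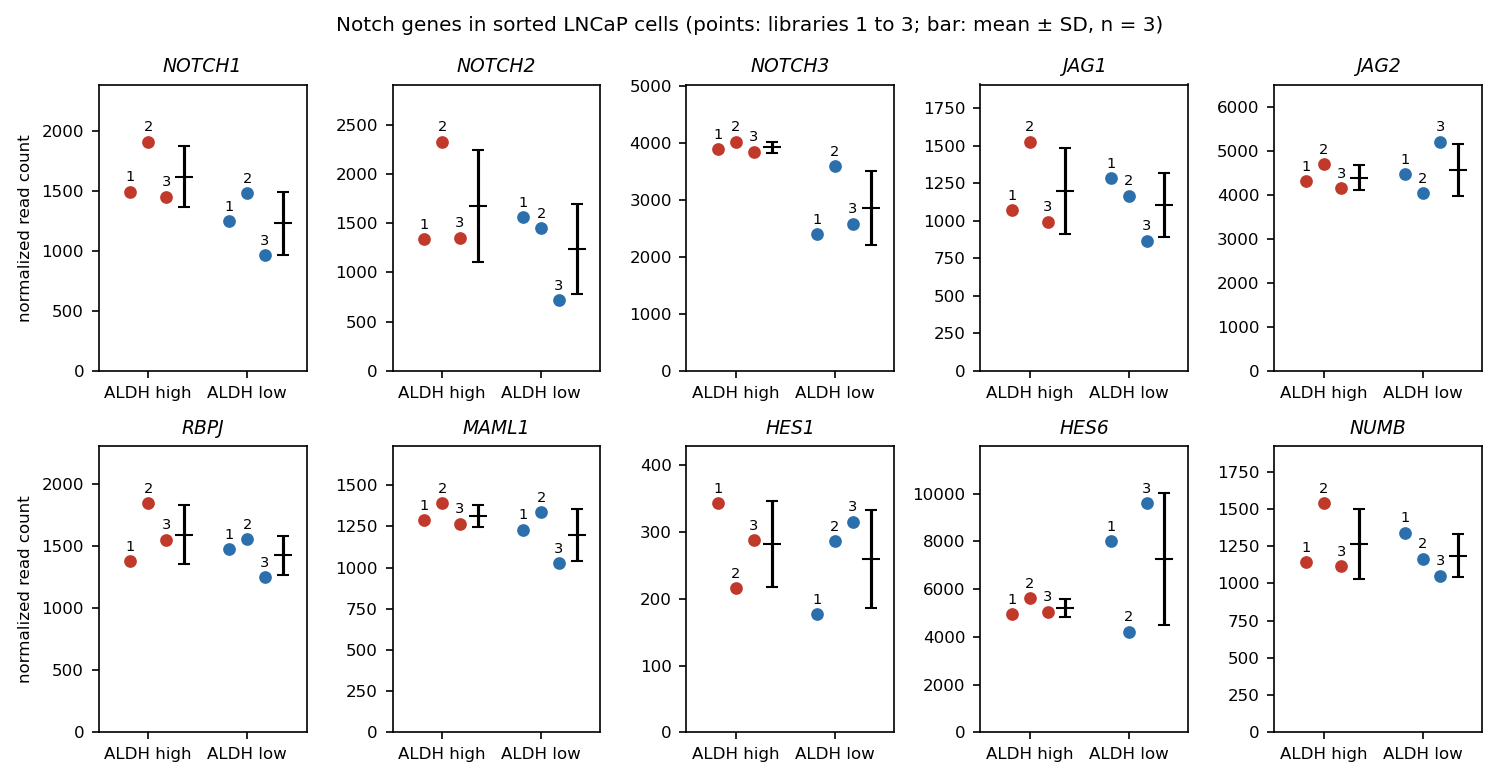
Normalized read count (axis from 0) of the 10 Notch genes, with points for libraries 1 to 3 of ALDH high (red, left) and ALDH low (blue, right) and bars for mean ± SD (n = 3). The groups are apart in NOTCH3 and overlap in the other 9 genes, and in HES6 the ALDH low libraries 1 and 3 stand above all others.

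The ligand genes overlapped between the groups and did not pass the test. JAG1, a ligand with a membrane anchor (chr20:10637684-10673999, minus strand), had 1072, 1527 and 993 normalized counts in ALDH high 1, 2 and 3, against 1284, 1168 and 868 in ALDH low 1, 2 and 3. As in NOTCH2, ALDH high 2 was highest and ALDH low 3 lowest. The log2 difference was 0.11 (−0.36 to 0.57), and it turned to −0.08 without ALDH high 2 and to −0.06 without ALDH low 3. JAG2, its relative (chr14:105140981-105168824, minus strand), had 4313, 4705 and 4160 in ALDH high, against 4468, 4039 and 5211 in ALDH low. Its log2 difference was −0.05 (−0.38 to 0.28), which was 0.05 without ALDH low 3. JAG2 thus had a narrow spread, with a highest value 1.29 times its lowest, and 7.33% of its exon bases also belong to another annotated gene of the same strand. Within each library JAG2 was above JAG1 per kb, by 5.85, 4.48 and 6.09 times in ALDH high 1, 2 and 3, against 5.06, 5.02 and 8.73 times in ALDH low 1, 2 and 3. This ratio overlapped between the groups (two-sided exact permutation p = 0.8, also 0.8 after adjustment over the 2 ratios tested, where 3 samples against 3 cannot go below 0.1).

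The genes of the nuclear complex and NUMB also overlapped between the groups. RBPJ (chr4:26163455-26435131, plus strand), which holds target genes silent until the receptor's intracellular part arrives, had 1377, 1844 and 1551 normalized counts in ALDH high 1, 2 and 3, against 1474, 1555 and 1248 in ALDH low 1, 2 and 3. Its log2 difference was 0.15 (−0.21 to 0.52; limma adjusted p = 0.984), and it was 0.042 without ALDH high 2 and 0.061 without ALDH low 3. MAML1 (chr5:179732850-179777286, plus strand), the coactivator, had 1287, 1390 and 1265 in ALDH high, against 1229, 1336 and 1026 in ALDH low. Its log2 difference was 0.14 (−0.20 to 0.48; limma adjusted p = 0.984), and it was 0.035 without ALDH low 3. In both genes ALDH high 2 was highest, ALDH low 3 lowest, and the remaining 4 libraries intermingled. NUMB (chr14:73275107-73458617, minus strand) had 1144, 1537 and 1116 in ALDH high, against 1339, 1166 and 1051 in ALDH low. Its log2 difference was 0.09 (−0.30 to 0.47), and −0.06 without ALDH high 2.

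Both repressor genes overlapped between the groups, with HES1 higher and HES6 lower on average in ALDH high. HES1 (chr3:194136145-194138732, plus strand) was the least counted of the 10, with 342, 215 and 287 normalized counts in ALDH high 1, 2 and 3, against 177, 286 and 315 in ALDH low 1, 2 and 3. Its lowest values were in ALDH low 1 and ALDH high 2, a library in which all 3 receptors were at their highest. HES1 has 2.06 kb of exon and the receptors 9.39 to 16.8 kb. Genes averaging 100 normalized counts or more were split into 4 bins of exon length. In the shortest bin 3.62% were highest in ALDH high 2, against 45.4% in the longest. The part of length here was not tested. The log2 difference was 0.14 (−0.45 to 0.73; limma adjusted p = 0.987), and it turned to −0.02 without ALDH high 1 and to −0.12 without ALDH low 1. HES6 (chr2:238238267-238240662, minus strand), described in mouse as an inhibitor of HES1 that favours neuronal differentiation, had 4941, 5623 and 5061 in ALDH high, against 8000, 4224 and 9595 in ALDH low. ALDH low 1 and 3 stood far above the other 4 libraries, and ALDH low 2 was the lowest of all. The ALDH high mean was 5209 ± 364 and the ALDH low mean 7273 ± 2759 (SD over 3 libraries), and the log2 difference was −0.40 (−0.98 to 0.18; limma adjusted p = 0.984). It was −0.16 without ALDH low 3 and −0.75 without ALDH low 2, so the size of the difference rests on single ALDH low libraries.

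HES6 was above HES1 in each library, and by an uneven factor. The ratio per kb was 14.6, 26.4 and 17.9 in ALDH high 1, 2 and 3, against 45.8, 14.9 and 30.8 in ALDH low 1, 2 and 3. The 3 lowest ratios were those of ALDH high 1, ALDH low 2 and ALDH high 3, and the highest that of ALDH low 1. The groups overlapped (two-sided exact permutation p = 0.4, 0.8 after adjustment over the 2 ratios).

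**Figure D3:**
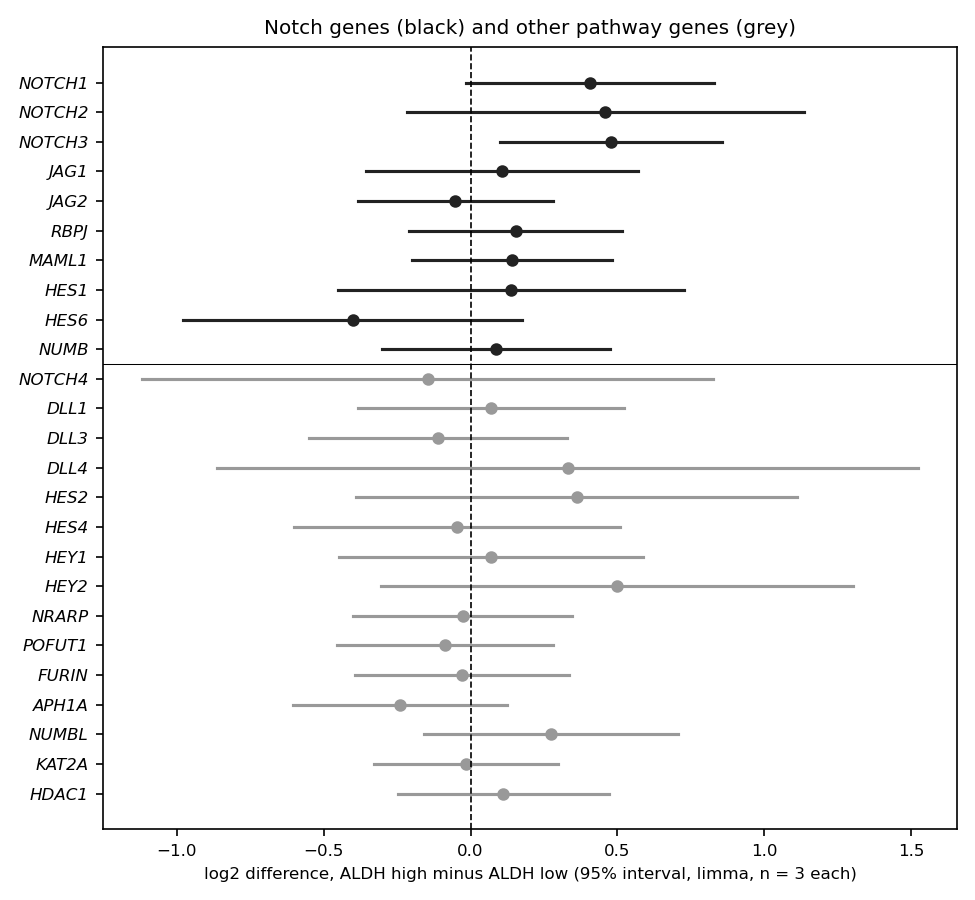
Log2 difference, ALDH high minus ALDH low, with its 95% interval (limma, n = 3 each) for the 10 Notch genes (black) and 15 other genes of the pathway (grey). The intervals of all genes but NOTCH3 include 0, and that of NOTCH3, which was chosen on this comparison, is shown as a description.

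Over the 10 genes the log2 difference was above 0 in 8 and below 0 in 2, with a median of 0.14, beside 8362 of 16000 genes above 0 and a median of 0.02 over all genes. NOTCH3, which was chosen on this comparison, is among the 8 and has the largest difference, so these figures are descriptions. The share above 0 ran with exon length: among genes averaging 100 normalized counts or more split into 4 equal bins of exon length, it was 72.9% in the bin with the longest exons, which holds 6 of the 10, and 25.2% in the bin with the shortest, which holds 2. None of the 10 genes passed limma's adjusted p of 0.05, as none of all 16000 did. For 9 of the 10, all but NOTCH2, the 95% interval stayed inside 2-fold up or down. So did that of 11958 of all 16000 genes, and of 10839 of the 11506 averaging 100 normalized counts or more. With the libraries numbered 1 and 3 alone, a choice made after seeing the data, 107 genes passed (0.669% of 16000), none of the 10 among them. That setting leaves out ALDH low 2, the ALDH low library nearest to the ALDH high ones in NOTCH3 and the lowest of all in HES6, so the larger log2 differences it gives, 0.64 in NOTCH3 and −0.81 in HES6, follow from the choice and are descriptions only.

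In the median over these genes, the libraries farthest from the genes' own means were ALDH high 2 and ALDH low 3. NOTCH3 and HES1 instead lay farthest from theirs in ALDH low 1, with log2 deviations of −0.47 and −0.58. HES6 stood at 0.42 there, and such opposite deviations cancel in a median. In 6 of the 10, NOTCH1, NOTCH2, JAG1, RBPJ, MAML1 and NUMB, ALDH high 2 was the highest library and ALDH low 3 the lowest, as in 1614 of all 16000 genes (10.1%). The median log2 deviation of the 10 genes from their own means was 0.29 in ALDH high 2, against −0.27 in ALDH low 3. It lay between −0.05 and 0.06 in the other 4 libraries. Over all genes it was at most 0.0028 in each library, but division by size factors holds that median near 0. The median log2 difference of ALDH high 2 minus ALDH low 3 was 0.56 in the 10 genes. In the exon-length bins above it was 0.43 in the longest and −0.43 in the shortest. With ALDH high 2 and ALDH low 3 left out together, a choice made after seeing the data, the median log2 difference between the groups was −0.03, with 3 genes above 0. NOTCH3 was at 0.40, HES1 at 0.48 and NOTCH1 at 0.12 in that setting, and the other 7 were below 0 (limma adjusted p = 0.671 for HES1).

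**Figure D4:**
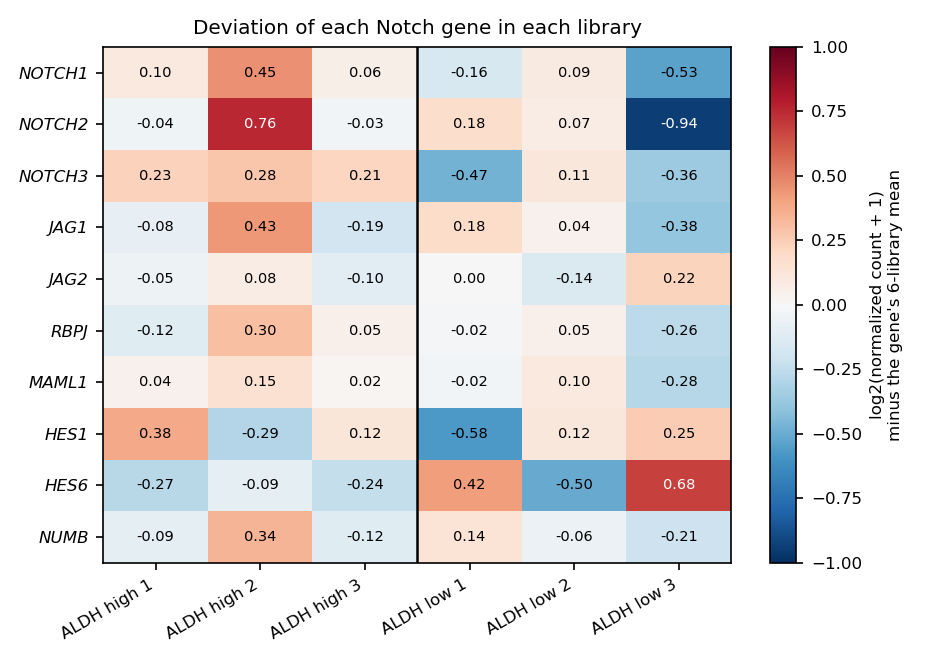
Log2(normalized count + 1) of each Notch gene in each library minus the gene's mean over the 6 libraries, with ALDH high left of the line and ALDH low right of it. ALDH high 2 is red and ALDH low 3 blue in 7 of the 10 rows, while HES1 and HES6 show the opposite colours in these libraries.

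Exon length moved with this pattern. In the same 4 bins of exon length, the share of genes with their highest value in ALDH high 2 and their lowest in ALDH low 3 was 0.661% in the bin with the shortest exons (up to 3.25 kb), 4.76% and 13.6% in the bins between, and 31.4% in the bin with the longest (from 7.56 kb). Of the 10 genes, 6 were in the longest bin and 5 of these 6 showed the pattern, the exception being NOTCH3, whose lowest library was ALDH low 1. HES1 and HES6, with 2.06 and 2.04 kb of exon, were in the shortest bin, and JAG2 and MAML1, with 6.397 and 5.94 kb, in the bin below the longest. The part of exon length in these results was not tested beyond the following setting. The log2 difference of ALDH high 2 minus ALDH low 3 ran from −0.77 in HES6 and −0.55 in HES1 to 0.99 in NOTCH1, with 10.4 kb, and 1.70 in NOTCH2, with 16.8 kb. A smooth trend with exon length was also removed from each library, a choice made after seeing the data, and the pattern was counted again. It was left in 3 of the 10 genes, NOTCH1, NOTCH2 and MAML1. Of all 15939 genes with a length 6.91% showed it, including any that gained it through the removal. The log2 difference between the groups was then 0.38 in NOTCH3, 0.29 in NOTCH1, 0.28 in NOTCH2 and −0.29 in HES6, and 0.01 in JAG1 and −0.02 in NUMB (0 genes passed).

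**Figure D5:**
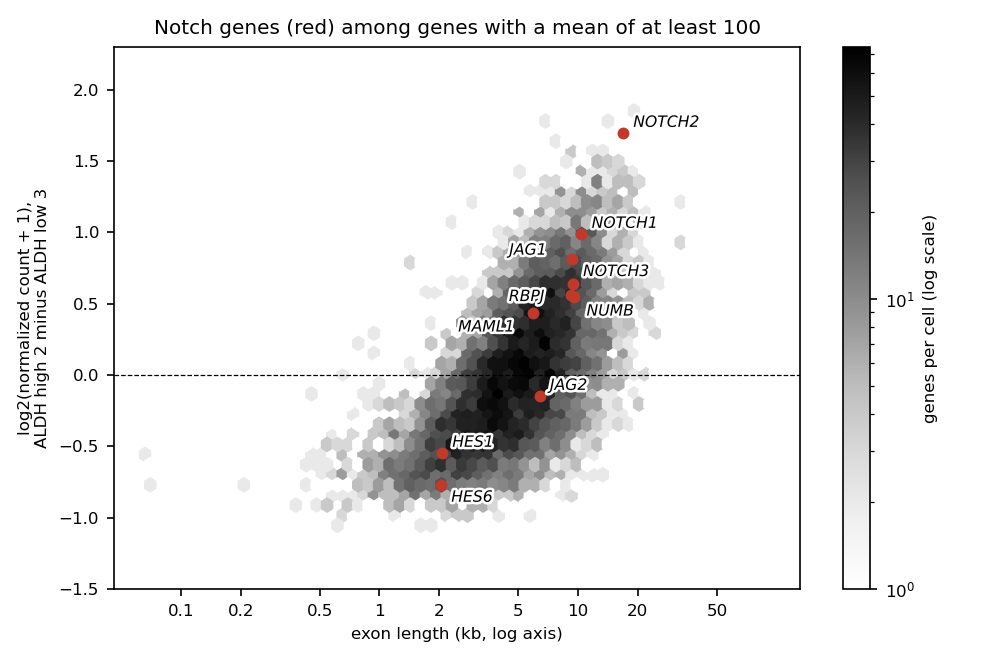
Log2(normalized count + 1) in ALDH high 2 minus ALDH low 3 against exon length (log axis) for genes averaging 100 normalized counts or more (grey, darker with more genes) and the 10 Notch genes (red). The difference runs upward with length over all genes, and the Notch genes spread along it from HES6 and HES1 at the short end to NOTCH2 at the long end.

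The genes whose profile over the 6 libraries was nearest to that of NOTCH3 were PROSER3, ZMIZ2 and LAMA5. Their root mean square differences from it, on centred log2 values, were 0.03, 0.06 and 0.06, beside a median of 0.36 over the 11505 genes compared. PROSER3 had 461, 463 and 440 normalized counts in ALDH high, against 288, 410 and 303 in ALDH low. LAMA5, a laminin chain of basement membranes, had 6828, 6987 and 6408 in ALDH high, against 4488, 5983 and 4570 in ALDH low. ZMIZ2, a coregulator of the androgen receptor, had 1726, 1679 and 1824 in ALDH high, against 1105, 1628 and 1183 in ALDH low. In all 3, as in NOTCH3, ALDH low 2 stood nearer to the ALDH high libraries than to ALDH low 1 and 3. They were picked for their likeness to a gene that was itself picked for its difference.

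Of 55 further genes of the pathway listed by role, the table held 48, and 0 of them reached an adjusted p of 0.05 with limma (0% of 16000 genes did). The log2 difference was above 0 in 30 and below 0 in 18, with a median of 0.05. Among other ligands, DLL3, often raised in neuroendocrine tumours, was the most counted, with 507, 438 and 551 normalized counts in ALDH high, against 467, 478 and 689 in ALDH low. DLL1 had 265, 224 and 290 in ALDH high, against 209, 261 and 274 in ALDH low. DLL4 and the receptor NOTCH4, both best known from blood vessels, were near the table's floor, at 12.6 to 17.3 and 10.04 to 19.4 in ALDH high, against 5.86 to 22.5 and 13.0 to 18.2 in ALDH low.

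Other target genes also overlapped between the groups. HES4, a HES repressor absent from the mouse, had 1488, 768 and 1264 normalized counts in ALDH high, against 922, 1212 and 1423 in ALDH low. It was low in the same libraries, ALDH high 2 and ALDH low 1, as HES1. HES4 has 1.12 kb of exon and HES1 2.06 kb, which puts both in the shortest bin of exon length. In that bin 1036 of 2874 genes were lowest in ALDH high 2 and 712 in ALDH low 1. The part of length in this likeness was not tested. NRARP, a feedback inhibitor of the receptor complex, had 943, 878 and 798 in ALDH high, against 752, 893 and 1038 in ALDH low. HEY1 had 179, 126 and 136 in ALDH high, against 128, 158 and 131 in ALDH low, while HEY2 and HES2 stayed under 50 throughout. HES5, HES7 and HEYL were not in the table. The log2 differences of these targets were −0.05 in HES4, −0.03 in NRARP, 0.07 in HEY1, 0.50 in HEY2 and 0.36 in HES2, and each 95% interval included 0.

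The genes that process receptors or serve as cofactors also overlapped between the groups. The most abundant gene per kb of each further role was POFUT1, which fucosylates the receptor (log2 difference −0.09), FURIN, which cuts it in the Golgi (−0.03), APH1A, a gamma-secretase subunit (−0.24), NUMBL, a relative of NUMB (0.27), KAT2A, an acetyltransferase (−0.01), and HDAC1, a deacetylase of corepressor complexes (0.11). All of these intervals included 0. APH1A had 5192, 5024 and 5103 normalized counts in ALDH high, against 6930, 4849 and 6510 in ALDH low, again with ALDH low 1 and 3 apart from the rest. Among gamma-secretase subunits 2 of 6 were above 0, among ubiquitin ligases and turnover factors 7 of 9, among further coactivators 6 of 7, among corepressors 8 of 10, and among glycosyltransferases 0 of 4. Beside these counts 52.3% of all genes were above 0, and the share ran with exon length as given above. The median exon length was 3.96 kb in the gamma-secretase genes, 6.07 kb in the ubiquitin ligases and turnover factors, 7.01 kb in the coactivators, 9.65 kb in the corepressors and 5.15 kb in the glycosyltransferases, and its part in these counts was not tested.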

How the data were processed

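Poly(A) RNA of 3 ALDH high and 3 ALDH low samples was analysed. Per the submitters' processing notes the authors used Trimmomatic 0.36, STAR 2.5.2b, featureCounts of Subread 1.5.2 and DESeq2 with GRCh38, and per the labels' protocols uniquely placed reads in exons were counted. The annotation release and strandedness are unstated. In the table that the authors deposited, each sample column is a normalized signal (read count divided by a size factor), beside the authors' log2 fold change (ALDH low over ALDH high, as read from the columns) and p-values. The 46 spike-in rows were left out. The remaining 16000 genes start at a minimum mean, so absent genes are not shown to be silent. Values were whole multiples of 1 step per library, and for at least 99.97% the recovered count lay within 0.02 of a whole number.

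The main test was limma 3.58.1 (R 4.3.3, two-sided, mean-variance trend) on log2(normalized count + 1), with Benjamini-Hochberg adjustment over all genes, and was tested on simulated data. This scale understates changes of low genes. edgeR 4.0.16, DESeq2 1.42.0 and limma-voom ran on recovered reads. Coordinates (GRCh38, counted from 1) and exon lengths (union of exons) came from GENCODE release 29. The genes and lists were chosen with earlier results of these data known. Named beside the 10 genes were all other listed receptors, ligands and target genes, and the most abundant gene per kb of each further role.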

Additional observations from a re-analysis of the deposited data

Results flagged for a closer look

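ERCC spike-ins, synthetic RNAs added as controls and left out of the gene comparison, took 0.487% of the recovered reads, with 0.399% to 0.630% in single libraries. They are listed as a signal outside the main measurement. They were added on purpose, so their presence is no finding. With 3 samples a group, no test for outlying values was made.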

How the results depend on the processing

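No gene passed an adjusted p of 0.05 with any test or scaling tried or without any single library. With libraries numbered 1 and 3 alone, a setting chosen after seeing the data, 107 passed. No paired analysis changed a call: with the replicate block 0 genes passed. In deviations from the group means, same-numbered samples had correlations of −0.46, −0.43 and 0.14. Such deviations balance out within a group, so these correlations cannot tell whether the numbers pair the samples. The labels do not say. The median log2 difference of the 10 Notch genes was 0.14, and 0.05 to 0.22 without single libraries. NOTCH1, NOTCH3 and HES6 kept their direction in every setting. NOTCH3 was chosen on this comparison and its groups do not overlap, so leaving out libraries could not turn its sign. Nothing is read from its kept direction. Signs that turned are given here, and their cause was not tested. Without single libraries the differences ranged from −0.081 to 0.23 in JAG1, −0.14 to 0.046 in JAG2, −0.12 to 0.32 in HES1, −0.063 to 0.18 in NUMB, −0.38 to 0.069 in NOTCH4, −0.048 to 0.17 in DLL1, −0.21 to 0.071 in DLL3, −0.068 to 0.82 in DLL4, −0.24 to 0.23 in HES4, −0.080 to 0.17 in HEY1, −0.15 to 0.087 in NRARP, −0.23 to 0.0082 in POFUT1, −0.17 to 0.046 in FURIN and −0.10 to 0.050 in KAT2A. With libraries numbered 1 and 3 alone JAG1 was −0.032, NUMB −0.071, NOTCH4 0.076, DLL4 −0.21 and HES4 0.26. With ALDH high 2 and ALDH low 3 left out together NOTCH2 was −0.16, JAG1 −0.25, RBPJ −0.051, MAML1 −0.0062, NUMB −0.15, NOTCH4 0.18, DLL3 0.16, HES4 0.38, NRARP 0.081 and KAT2A 0.044. With the exon-length trend removed NUMB was −0.016, HES4 0.12, NRARP 0.10 and KAT2A 0.018. With equal totals NRARP was 0.018, FURIN 0.014 and KAT2A 0.030. With pseudocounts or filters for low values no sign turned. The 95% interval was −0.86 to 1.52 in DLL4 and −1.12 to 0.83 in NOTCH4, both near the floor of the table, and −0.54 to 1.83 in DTX4, and the part of depth was not tested.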

Other observations

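DTX4, EP300 and SPEN are genes of the wider pathway list that were chosen after their values were seen. DTX4, a Deltex ubiquitin ligase gene, had 173, 54.7 and 152 normalized counts in ALDH high 1, 2 and 3, against 51.1, 161 and 45.0 in ALDH low 1, 2 and 3. ALDH low 2 thus stood with ALDH high 1 and 3, and ALDH high 2 with ALDH low 1 and 3. Over all 6 libraries its log2 difference was 0.64 (95% interval −0.54 to 1.83; limma adjusted p = 0.984). With the libraries numbered 1 and 3 alone it was the 1 of the 48 genes that passed, beside 107 of 16000 genes (0.669%), and that setting leaves out ALDH high 2 and ALDH low 2, the libraries that ran against the difference.

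EP300, a histone acetyltransferase recruited by Mastermind, had 2053, 3722 and 2139 normalized counts in ALDH high, against 2350, 2083 and 1286 in ALDH low. SPEN, a corepressor that binds RBPJ, had 1365, 2039 and 1542 in ALDH high, against 1262, 1682 and 802 in ALDH low. Both were picked because ALDH high 2 was highest and ALDH low 3 lowest, as in 5 of the 48 further genes (10.4%) and 10.1% of all genes. EP300 has 12.5 kb of exon and SPEN 13.3 kb, in the range of lengths where 31.4% of genes averaging 100 normalized counts or more show it.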
